A study of Mus musculus with 8 samples.

Results

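The genes described here are 150 mouse genes of the GENCODE class TEC that were detected in fully grown oocytes. They were chosen by their count: of 3008 TEC genes with exon IDs in the deposited data, 1620 held any count and these 150 held 80 or more over all 8 libraries together. The total count therefore chose the members and is given as a description. Totals ran from 80 to 18479, with a median of 220.5. Just inside the limit stood Gm48887 (80 counts), Gm36981 (81), Gm37444 (81) and Gm43268 (81), and just outside it Gm43210 (79), Gm49338 (79), Gm38103 (78) and Gm10416 (77).

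TEC genes are provisional models. Annotators drew them where expressed sequence tags pointed to a polyadenylated, mostly unspliced transcript whose identity still awaited experimental work. They have no assigned product, and in a growing oocyte such RNA can come from non-coding genes, from introns of longer transcripts or from mobile elements. The complex that holds Virma, also called Kiaa1429, writes N6-methyladenosine (m6A) on RNA in the nucleus, a mark read by proteins that act on splicing, polyadenylation, export and decay of both coding and non-coding RNA.

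The conditional knockouts were germinal vesicle (GV) oocytes of Kiaa1429F/F;Zp3-Cre females (Kiaa1429Zp3cKO, here cKO, 4 libraries) and the controls were GV oocytes of Kiaa1429F/+;Zp3-Cre females (4 libraries). Both groups thus carried the Zp3-Cre recombinase, which is driven by an oocyte promoter active during oocyte growth, and the controls could lose 1 of their Virma copies. All mice were C57BL/6, given as 20 days old in one label and as 3 weeks in another, and had received 5 IU of PMSG 48 hours earlier. Each library pooled about 20 oocytes of at least 70 µm, and the labels do not say which libraries came from separate animals, so p-values measure the spread between libraries.

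Exon counts per library ran from 4399190 to 5064008 in the cKO and from 4247471 to 4790038 in the controls. Virma stood at 18.6, 24.2, 17.8 and 17.0 CPM (counts scaled to library size) in the cKO libraries and at 61.0, 71.6, 57.1 and 82.0 CPM in the controls, so every library went with its label (log2 fold change -1.81, SE 0.18). Which exons the floxed allele removes was not stated, so this checks the labels through the amount of RNA alone. Oocyte markers were abundant in every library, with a sum over 12 genes of 20992 to 25162 CPM in the cKO and 38254 to 50781 CPM in the controls. Of these 12 genes 6 fell and 1 rose. The 13 cumulus and granulosa markers summed to 453 to 744 CPM in the cKO and 233 to 395 CPM in the controls. Most of these sums lay on Nr5a2 (means of 323 CPM in the cKO and 139 CPM in the controls) and Inha (174 and 66.1 CPM). Of the 9 that could be tested 4 rose, among them Nr5a2 and Inha, and 2 fell, Cyp19a1 and Fshr. Theca and stroma markers (5 genes) summed to 4.21 to 5.24 CPM in the cKO and 5.32 to 6.84 CPM in the controls, and vessel markers (3 genes) to 4.04 to 11.6 CPM in the cKO and 5.00 to 12.1 CPM in the controls. Of 7 immune and blood markers 5 were at 0 in all libraries, and C1qa averaged 7.0 ± 1.64 CPM in the cKO and 0.177 ± 0.217 CPM in the controls (SD, n = 4 each). Whether these RNAs came from other cells or from the oocytes themselves, and what part other cells had in the levels below, was not tested. In such pooled samples, fewer cells of a type and less RNA per cell cannot be told apart.

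A single sequence runs through many of the most abundant members in the controls, and it is shown first because most of the difference between the groups in the members' counts lay on it. When the 150 transcripts were aligned with each other, 23 held at least 300 bases with at least 80% identity to Gm45663. Several members aligned with all the others in the group, and Gm45663 was taken from among them as the reference by orientation and then by alignment score. Gm45663 (ENSMUSG00000109909.1) is a single exon of 1632 bases at chr8:104152706-104154337 on the plus strand (mm10), and lies outside coding genes. Its bases 1 to 140 return at bases 1493 to 1632 with 100% identity, so that the model begins and ends with the same direct repeat. The repeat reads as follows, with the polyadenylation signal in capitals.
Gm45663 repeat (chr8:104152706-104152845, plus strand): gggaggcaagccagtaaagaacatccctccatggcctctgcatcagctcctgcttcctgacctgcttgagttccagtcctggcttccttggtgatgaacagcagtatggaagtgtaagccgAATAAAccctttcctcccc

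Of the 23 members 16 hold a window between the repeats of which 100 bases are shown. They are from Gm45663 and from the 4 members of highest level in the controls, all written in the orientation of Gm45663, with each base that differs from Gm45663 in capitals. In this window Gm42553 differed at 3 bases, Gm36976 at 6, Gm44792 at 7 and Gm38383 at 9, with no gap in any of them.
Gm45663 (chr8:104152926-104153025, plus strand): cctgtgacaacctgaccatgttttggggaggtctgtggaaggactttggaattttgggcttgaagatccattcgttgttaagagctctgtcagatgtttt
Gm36976 (chr3:43547394-43547493, plus strand): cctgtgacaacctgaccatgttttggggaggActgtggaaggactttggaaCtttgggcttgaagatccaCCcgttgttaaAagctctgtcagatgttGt
Gm42553 (chr5:43059473-43059572, plus strand): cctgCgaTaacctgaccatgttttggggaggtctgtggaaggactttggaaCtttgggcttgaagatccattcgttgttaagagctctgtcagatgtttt
Gm44792 (chr7:65479813-65479912, plus strand): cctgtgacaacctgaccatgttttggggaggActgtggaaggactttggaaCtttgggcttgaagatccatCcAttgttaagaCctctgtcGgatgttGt
Gm38383 (chr2:24591099-24591198, minus strand): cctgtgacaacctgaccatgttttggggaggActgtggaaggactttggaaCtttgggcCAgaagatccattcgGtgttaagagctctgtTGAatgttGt

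Of the 23 members, 16 matched Gm45663 over at least 500 bases with at least 90% identity. The others held a shorter stretch: Gm43769, Gm43679, Gm45424, Gm37266 and Gm37985 matched only from base 1291 or 1292 to the end, which takes in the second repeat, and 5530400K19Rik and Gm43923 matched parts of the middle. In 18 members, Gm45663 among them, the annotated strand was that of Gm45663, and in 5 it was the opposite one. The best match of each member had 85.5% to 97.9% identity with Gm45663. No repeat annotation was used here, so the sequence is given no name. The same sequence stood in 46 of all 3008 TEC genes (1.53%), of which 23 reached 80 counts, and in 0.598% of lincRNA genes and 0.626% of protein-coding genes. The sharing was noticed after the values had been seen, so the values of the group are a description with no test of the group.

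**Figure D1:**
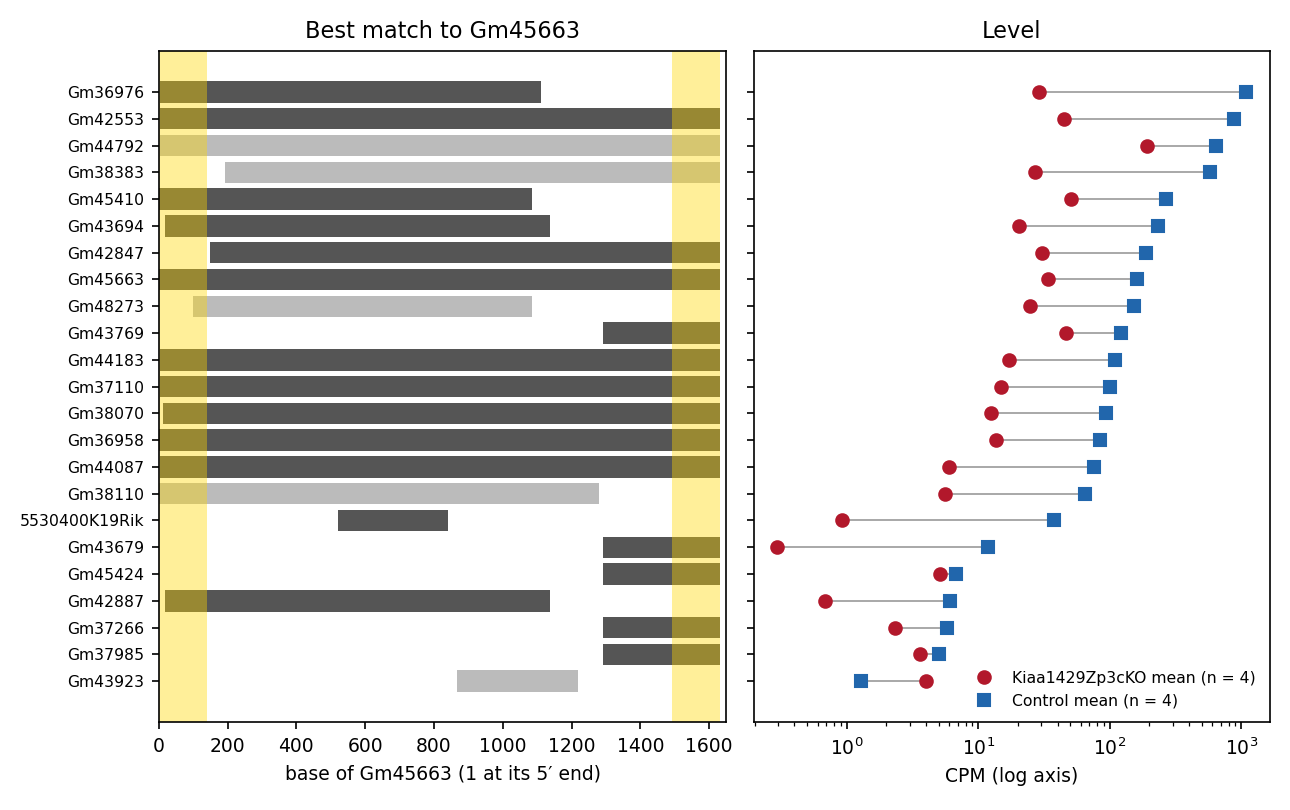
Left, the part of Gm45663 (in bases from its 5′ end) that each of the 23 members matched best, dark where the annotated strand was the same and light where it was opposite, with the direct repeat shaded. Right, mean CPM of 4 Kiaa1429Zp3cKO libraries (circles) and of 4 Control libraries (squares) on a log axis; the cKO mean was lower for every member except Gm43923.

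The 150 members together took 0.217%, 0.212%, 0.197% and 0.219% of exon counts in the cKO libraries, against 0.634%, 0.835%, 0.679% and 0.533% in the controls. Every control library was thus above every cKO library, and the cKO mean was 0.315 of the control mean. Relative to all reads, with ambiguous reads and reads outside exon IDs included, the members took 0.0315% ± 0.00191 in the cKO and 0.101% ± 0.0182 in the controls (SD, n = 4 each). Most of the difference lay on the shared-sequence group. Its 23 members took 0.0681%, 0.0602%, 0.0521% and 0.0640% of exon counts in the cKO libraries and 0.408%, 0.614%, 0.507% and 0.310% in the controls, a ratio of 0.133. The other 127 members took 0.149%, 0.151%, 0.145% and 0.155% in the cKO and 0.226%, 0.221%, 0.172% and 0.223% in the controls, a ratio of 0.713. The shared-sequence group thus held 29.0% of the members' counts in the cKO and 68.5% in the controls.

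**Figure D2:**
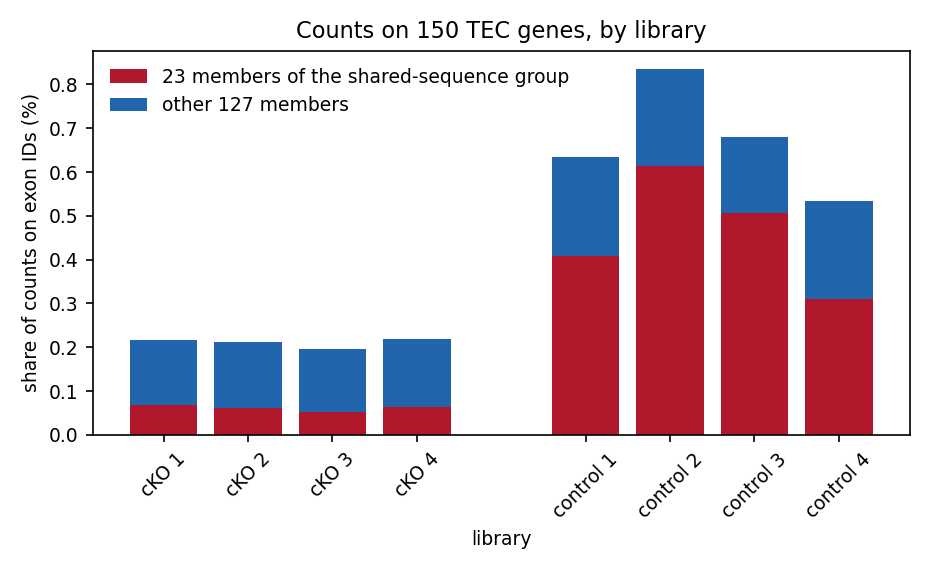
Share of exon counts (percent, bars from 0) on the 150 TEC genes in each of 4 cKO and 4 control libraries, split into the 23 members of the shared-sequence group and the other members. The cKO libraries all sit near 0.2%, and the controls between 0.533% and 0.835%, with most of the gap in the shared-sequence part.

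On the shared sequence the spread between libraries was 0.00681 percentage points (SD, n = 4) in the cKO and 0.130 in the controls. In 15 of the 23 members control library 4 was the lowest control, and in 21 either control library 2 (11 members) or control library 3 (10 members) was the highest. On the other members control library 3 was the low one. Reads outside every exon ID also differed between the groups, at 5.77% ± 0.531 of reads in the cKO and 11% ± 0.883 in the controls (SD, n = 4 each), while ambiguous reads were 79.3% ± 0.751 of reads in the cKO and 73.8% ± 1.07 in the controls. Between the groups, the share outside exon IDs was thus higher where the members' share was higher, and the ambiguous share was lower there. What part these shares had in the members' levels was not tested.

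Gm36976 (ENSMUSG00000104303.1, chr3:43547173-43548282, plus strand) was the most abundant member in the controls. Its single exon lies 1743850 bases from the nearest coding gene. It matches bases 3 to 1109 of Gm45663, which take in the first repeat and part of the stretch between the repeats. It had 35.0, 33.4, 17.6 and 29.2 CPM in the cKO libraries and 942, 1484, 1206 and 724 CPM in the controls. The lowest control library stood far above the highest cKO library, and the log2 fold change came to -5.24 (SE 0.26; adjusted p = 3.29e-09 by edgeR's quasi-likelihood test, Benjamini-Hochberg over 10673 genes).

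Gm42553 (chr5:43059255-43060883), whose nearest coding gene is the mRNA-binding protein gene Cpeb2, had 48.7, 41.0, 35.7 and 53.9 CPM in the cKO and 781, 1043, 1125 and 545 CPM in the controls (log2 fold change -4.28, SE 0.23). Gm38383 (chr2:24588566-24591225), 12662 bases from the calcium channel gene Cacna1b, had 35.9, 28.3, 18.3 and 25.5 CPM in the cKO and 571, 818, 539 and 376 CPM in the controls (log2 fold change -4.42, SE 0.25). In both, the lowest control stood far above the highest cKO library. Gm42847, 2922 bases from Nat8l, which makes N-acetylaspartate, averaged 30.3 ± 13.9 CPM in the cKO and 187 ± 55.3 CPM in the controls. Gm45663 itself had 35.4, 33.4, 26.2 and 41.6 CPM in the cKO and 136, 197, 181 and 125 CPM in the controls (log2 fold change -2.22, SE 0.19, adjusted p = 2.28e-07, edgeR).

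Gm44792 (chr7:65479594-65481221, minus strand) lies in an intron of Tjp1, the gene of the tight junction protein ZO-1. It had 213, 198, 169.8 and 185 CPM in the cKO and 560.0, 761, 754 and 469.8 CPM in the controls (log2 fold change -1.73, SE 0.16, adjusted p = 5.83e-07, edgeR). It kept the highest cKO level of the group. Gm37110, inside Khdrbs2, and Gm44183, inside Nek6, have the same 1628 bases (100% identity), and each is 99.9% identical to Gm44792. Gm37110 averaged 14.9 ± 3.18 CPM in the cKO and 101 ± 29.5 CPM in the controls, and Gm44183 averaged 17.2 ± 4.53 CPM in the cKO and 109.6 ± 59.97 CPM in the controls (SD, n = 4 each). Gm43694 and Gm42887 are 99.9% identical over 1119 bases. Gm43694 stood at 20.5 ± 14.0 CPM in the cKO and 232 ± 77.6 CPM in the controls, and Gm42887 at 0.686 ± 0.467 CPM in the cKO and 6.11 ± 1.82 CPM in the controls. Gm45410, on the opposite strand inside Atp4b, a subunit of the gastric proton pump, had 60.3, 45.5, 45.1 and 51.5 CPM in the cKO and 203, 339, 372 and 161 CPM in the controls (log2 fold change -2.41, SE 0.24). Gm44087, inside the calcium release channel gene Itpr2, and Gm38110, inside the engulfment adaptor gene Gulp1, had lower levels, with log2 fold changes of -3.65 and -3.53. The sources used here do not say how the authors' alignment placed reads between such copies, and the level of each near-identical copy is uncertain.

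Of the 23 members 21 could be tested, of which 19 fell and none was called higher (median log2 fold change -2.67). All 21 had a log2 fold change below 0 (-5.28 to -0.40), so none could be higher at an unadjusted p under 0.05 either. On the same tested genes limma-voom and DESeq2 called none higher. The 16 with the long match all fell, with log2 fold changes of -1.73 to -5.24. Among the shorter matches, 5530400K19Rik had 1.11, 0.212, 0.860 and 1.498 CPM in the cKO and 43.0, 45, 28.1 and 33.3 CPM in the controls, a log2 fold change of -5.28 (SE 0.33). Gm43769 and Gm37266 also fell. Gm45424 (log2 fold change -0.40) and Gm37985 (-0.48) were not called. Gm43923, which did not pass the filter on low counts, averaged 4.01 CPM in the cKO and 1.29 CPM in the controls. Without that filter Gm43923 was called higher.

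Over all members, the mean was lower in the cKO for 107 of 150 and higher for 43. In 79 of the 150 all 4 cKO libraries were below all 4 controls, and in 19 all were above. Among the 137 tested members these counts were 74 and 19. Over all 10673 tested genes the cKO libraries were all below in 25.1% and all above in 25%. Of the 150 members 137 passed the filter on low counts, 35 of them only through the controls and 11 only through the cKO, which favours a difference. Of the 137, 74 (54.0%) fell and 18 (13.1%) rose at an adjusted p under 0.05 (edgeR). Of all tested genes 27.9% fell and 27% rose. Among the 76 members at or above the minimum in all 8 libraries, 43 fell and 11 rose. The median log2 fold change was -0.88 over the tested members and 0.02 over all tested genes. Without the shared-sequence group, 116 members were tested, of which 55 (47.4%) fell and 18 (15.5%) rose (median -0.70).

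Other gene classes were held to the same limit of 80 counts. Of 771 tested lincRNA genes 51.5% fell and 17.5% rose (median log2 fold change -0.65), and of 317 antisense and sense-intronic genes 54.9% fell and 12.6% rose (median -0.76). Of 7871 protein-coding genes 23.6% fell and 30.4% rose (median 0.10). The shared sequence also occurred among 8 of the tested lincRNA genes, of which 6 fell and none was called higher, also not at an unadjusted p under 0.05 or by limma-voom or DESeq2. An example is Gm16211, at 16.9 ± 6.67 CPM in the cKO and 131 ± 25.6 CPM in the controls. Of 77 tested protein-coding genes with the sequence in a transcript, 28 fell and 10 rose (median -0.27). No test of a difference between the classes was made.

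Members outside the shared-sequence group moved both ways, and some of them were among the most abundant members in the cKO. Gm31579 (chr6:50909770-50910735, plus strand), 255331 bases from the neuropeptide gene Npvf, had 148, 247, 257 and 214 CPM in the cKO and 364, 400.5, 303 and 332 CPM in the controls (log2 fold change -0.69, SE 0.17, adjusted p = 0.00238, edgeR). The groups were apart but close, and Gm31579 was the most abundant member in the cKO. Gm44541 (chr8:9342220-9345126), inside Fam155a, a partner of a sodium leak channel, had 51.2, 43.1, 36.1 and 56.7 CPM in the cKO and 200.1, 181, 175 and 196 CPM in the controls (log2 fold change -2.005, SE 0.156). Gm37457 (chr9:91325416-91327848), 30210 bases from the transcription factor gene Zic1, had 1.77, 1.06, 1.29 and 1.12 CPM in the cKO and 27.9, 24.4, 31.3 and 29.5 CPM in the controls (log2 fold change -4.41, SE 0.24). Its control libraries lay close together. Gm37090, near the receptor gene Tnfrsf4, averaged 1.06 ± 0.604 CPM in the cKO and 14.5 ± 3.95 CPM in the controls, and Gm43188, inside the developmental gene Auts2, averaged 1.22 ± 0.848 CPM in the cKO and 9.91 ± 3.44 CPM in the controls.

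Of the 10 members of highest mean CPM over all libraries Gm37881 was the only one that rose. This exon of 421 bases (chr2:11683126-11683546, plus strand) lies inside Il2ra, the gene of an interleukin-2 receptor chain. It had 162, 129.8, 127 and 154 CPM in the cKO and 67.9, 50.0, 36.3 and 62.5 CPM in the controls (log2 fold change 1.40, SE 0.18, adjusted p = 1.43e-05, edgeR), with no overlap. Per kilobase of countable sequence it had the highest level of these 10 in the cKO, 341 CPM per kb, against 129 CPM per kb in the controls, where Gm36976 led with 981 CPM per kb.

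Gm45757 (chr8:95045981-95047460), 731 bases from the adhesion receptor gene Adgrg3, had 52.7, 40.6, 67.9 and 48.7 CPM in the cKO and 12.2, 6.46, 5.26 and 11.8 CPM in the controls (log2 fold change 2.54, SE 0.26). Gm48865, inside Hddc2, had 51.2, 40.2, 41.5 and 51.1 CPM in the cKO and 8.65, 13.2, 13.7 and 10.01 CPM in the controls (log2 fold change 2.02, SE 0.20). Gm37374, 6932 bases from the T-box gene Tbx18, averaged 12.4 ± 2.30 CPM in the cKO and 2.60 ± 0.759 CPM in the controls. In these 3 every cKO library was above every control. Smaller rises fell on Gm38345, 154 bases from the homeobox gene Hhex (log2 fold change 1.38), Gm38228 in the adaptor gene Nck2 (1.08), Gm43668 inside Dnajc19 on the opposite strand (1.05), B230206I08Rik in the synaptic scaffold gene Dlg2 (1.02), Gm47522 (0.91) and Gm44996 in Tmem135 (0.72).

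**Figure D3:**
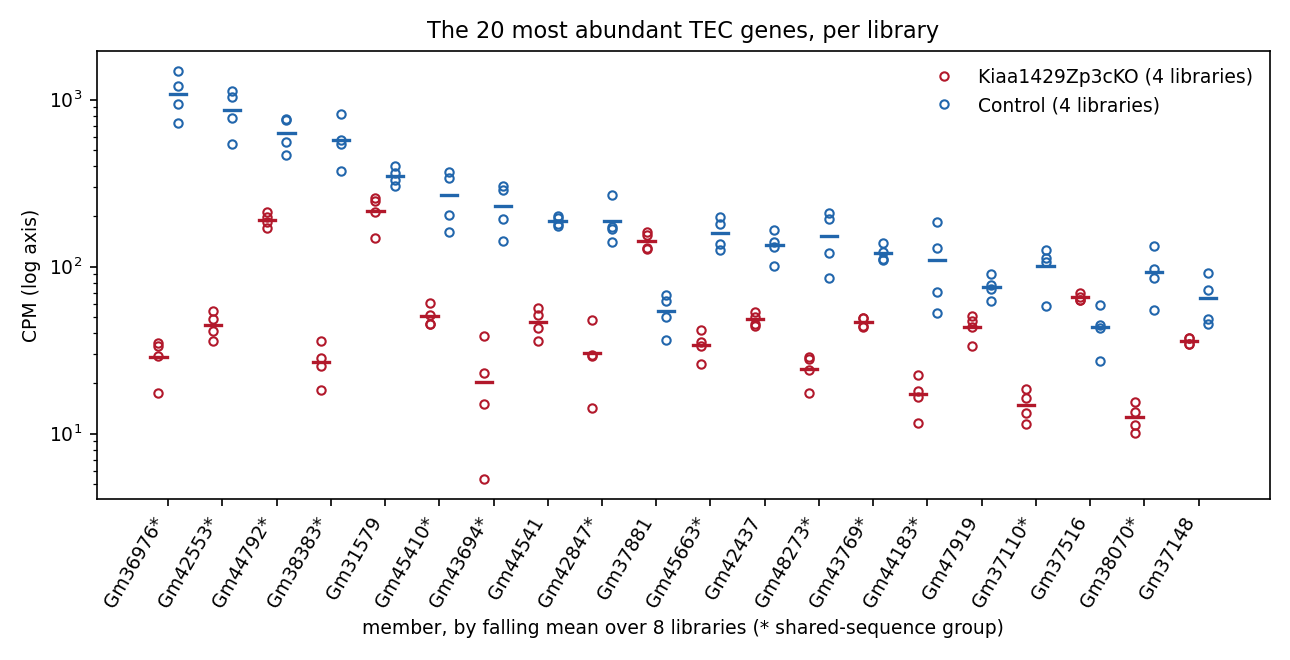
CPM (log axis) of the 20 members of highest mean CPM over all libraries, in 4 cKO libraries (left of each pair) and 4 control libraries (right), each circle 1 library and each line a group mean; an asterisk marks the shared-sequence group. Of these 20 members Gm37881 and Gm37516 were higher in the cKO, and the means of the other 18 were lower.

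The order of the members also differed between the groups. In the cKO 3 members averaged at least 100 CPM, Gm31579, Gm44792 and Gm37881, against 15 in the controls. The 10 members of highest mean CPM over all 8 libraries, the same set for both groups, held 39.6% of the members' counts in the cKO and 62.4% in the controls. All of these 10 but Gm37881 were lower in the cKO, so the choice of the set itself favours a larger share in the controls. The median member averaged 4.45 CPM in the cKO and 8.15 CPM in the controls.

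By position, 71 members lie wholly inside a protein-coding gene, 73 lie outside all of them and 6 overlap one in part. Of the 71 inside, 58 lie on the strand of their host and 13 on the opposite strand, and 68 share no base with an exon of the host. The libraries do not mark strand, so reads of an unspliced host transcript cannot be told apart from reads of the member. Inside coding genes 64 members were tested, of which 33 fell and 8 rose (median log2 fold change -1.07). Outside 67 were tested, of which 37 fell and 9 rose (median -0.81). Of the 6 partial ones 4 fell and 1 rose. Over all tested genes the shares that fell and rose were 27.9% and 27%. The shared-sequence group lay on both sides, with 9 members inside and 14 outside. Without it, 25 of 56 fell inside and 26 of 54 outside, with medians of -0.73 and -0.64. The difference between inside and outside was not tested.

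Strand and distance split the members further. On the strand of the host 23 of 51 tested members fell and 7 rose (median log2 fold change -0.70). On the opposite strand 10 of 13 fell and 1 rose (median -1.48). Without the shared-sequence group 18 of 46 fell on the strand of the host (median -0.50) and 7 of 10 on the opposite strand (median -1.24). Of all tested genes 27.9% fell and 27% rose. Of the 8 outside members within 10 kb downstream of a coding gene on the same strand, 6 were tested. Gm45663 alone fell, 2 rose and 3 were not called. Of 61 farther ones, the shared-sequence group included, 36 fell and 7 rose. Differences between these sets were not tested. The median outside member was 28895 bases from a coding gene.

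**Figure D4:**
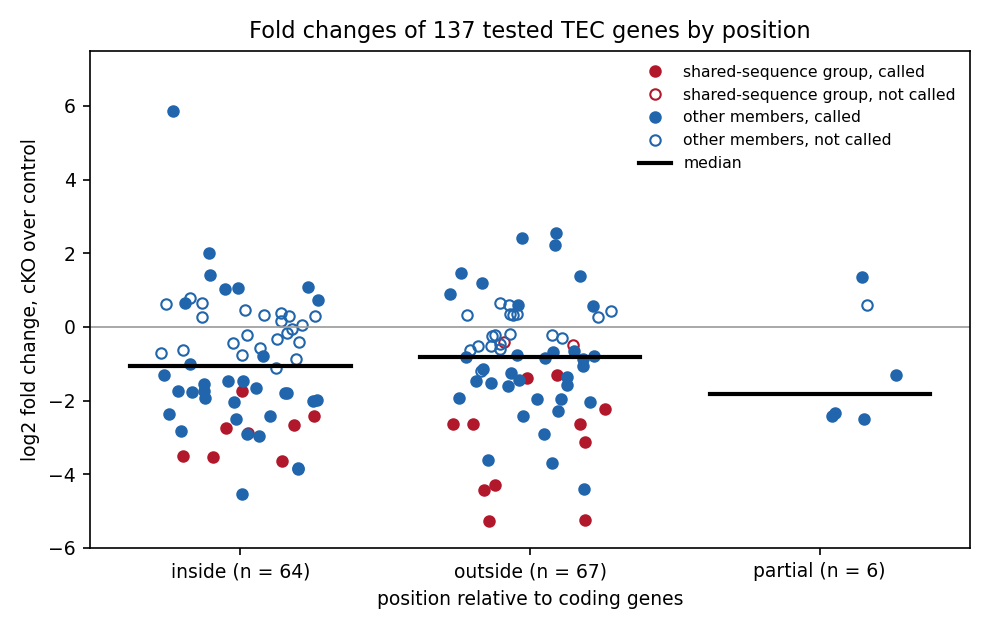
Log2 fold change (cKO over control) of the 137 tested members, by position relative to coding genes; filled circles were called at an adjusted p under 0.05 (edgeR), open ones were not, and lines are medians. The medians are -1.07 inside, -0.81 outside and -1.83 for partial overlap, and the shared-sequence group lies below 0 in both larger groups.

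For 49 inside members both the member and its host, 46 genes in all, could be tested. The member's log2 fold change was below that of its host in 36 pairs, with medians of -1.12 for members and -0.23 for hosts. Of 25 members that fell here, 9 had a host that fell, 5 a host that rose and 11 a host that was not called. Of 5 that rose, 2 had a host that rose and 1 a host that fell. For comparison, 27.9% of all tested genes fell and 27% rose. Whether the calls of members and hosts go together was not tested. Across these 49 pairs the correlation of the fold changes was 0.31 (Pearson) and 0.07 (Spearman). In the 44 pairs without the shared sequence it was 0.49 (Pearson) and 0.18 (Spearman), the medians were -0.78 for members and -0.30 for hosts, and the member was below its host in 31. Both Pearson values include the pair of Gm43843 and Cttnbp2 (log2 fold changes 5.87 and 5.77), which lies far above all others. They were not computed without it. Pairs come from the same 8 libraries and are not independent.

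The widest gap was in Yes1, a Src family kinase. Gm43694, with the shared sequence, had 38.3, 23.2, 5.37 and 14.98 CPM in the cKO and 192, 288, 306 and 143 CPM in the controls (log2 fold change -3.51, SE 0.41), while Yes1 had 249, 251, 204 and 221.1 CPM in the cKO and 45.7, 35.7, 29.5 and 44.0 CPM in the controls (log2 fold change 2.58, SE 0.16). Every cKO library was below every control for the member and above every control for its host. Khdrbs2, an RNA-binding protein of the Sam68 family, averaged 59.0 ± 3.24 CPM in the cKO and 8.39 ± 1.36 CPM in the controls, against the fall of Gm37110 given above. Il1r1, the interleukin-1 receptor, had a log2 fold change of 1.69 (SE 0.30), and Gm38070 inside it, again with the shared sequence, had one of -2.88 (SE 0.25). As given above, the levels of Gm43694 and Gm37110 are uncertain because near-identical copies lie elsewhere.

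Without the shared sequence, 2 members that fell had a host that rose. Gm43313, inside Ppp1cb, a catalytic subunit of protein phosphatase 1, had 0.222, 0.425, 0 and 0.374 CPM in the cKO and 8.21, 8.38, 2.63 and 7.0 CPM in the controls, while Ppp1cb averaged 162 ± 31.9 CPM in the cKO and 75.0 ± 19.1 CPM in the controls. C030015A19Rik, inside the zinc finger gene Zxdc, fell by 2.43 on the log2 scale, while Zxdc rose (log2 fold change 0.83). In other pairs the host was not called or fell. Gm42856, inside the actin regulator Wasl, averaged 0.304 ± 0.249 CPM in the cKO and 4.82 ± 0.770 CPM in the controls, while Wasl had 335 ± 47.9 CPM in the cKO and 353 ± 59.999 CPM in the controls (log2 fold change -0.08, not called). Gm44792, of the shared-sequence group, fell while its host Tjp1, not called either, averaged 28.4 ± 4.86 CPM in the cKO and 28.2 ± 7.14 CPM in the controls. Reads meeting several exon IDs enter no gene, so the level of a host cannot be compared with that of its member. Itpr2 fell as its member Gm44087, also of that group, did, with a log2 fold change of -0.94 (SE 0.13). Il2ra fell (log2 fold change -0.57, SE 0.18) around the rising Gm37881.

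Member and host moved together in Cttnbp2, a cytoskeletal regulator, a pair picked after its values were seen. Gm43843 held 99 counts in the cKO libraries together and 1 in the controls, a ratio of 84.9 after scaling (95% Clopper-Pearson interval 14.9 to 3389, counting error only). Cttnbp2 averaged 4.82 ± 0.891 CPM in the cKO and was at 0 in 3 of 4 controls. In 5 hosts 2 members lay in the same gene. Both members in Auts2 fell, and in Khdrbs2, Fam155a and Gm20388 1 fell and 1 was not called. In Dlg2 B230206I08Rik rose and Gm45183 was not called.

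**Figure D5:**
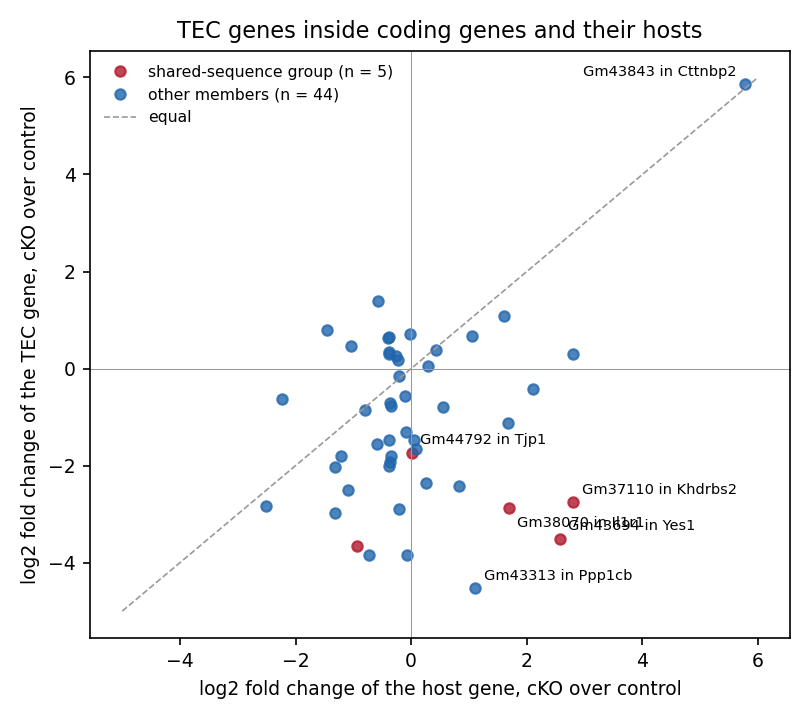
Log2 fold change (cKO over control) of 49 TEC genes inside coding genes against that of their host, each point 1 pair, with a dashed line where both are equal. In 36 pairs the member lies below the line. Gm43694, Gm37110 and Gm38070, all of the shared-sequence group, fell in hosts that rose.

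The members were spread over 17 chromosomes, with 27 on chromosome 1 and 21 on chromosome 5, the chromosomes that also hold the most TEC genes of the annotation (475 and 501 of 3008). The median length was 2153.5 bases, and 147 of the 150 consist of 1 exon ID. AATAAA or ATTAAA stood in the last 50 bases, on the annotated strand, in 59 members (39.3%), against 28.6% of 3048 TEC transcripts and 37.5% of 7425 lincRNA transcripts. The letters GGACT, a common core of the sites that the m6A writer methylates, occurred at a median of 0.94 per kb on the annotated strand of the members and 0.78 per kb on the other. The medians on the annotated strand were 1.96 per kb in the shared-sequence group, 0.89 per kb in the other members, 0.72 per kb over all TEC transcripts and 0.98 per kb over lincRNA transcripts. On the other strand they were 1.16, 0.63, 0.69 and 0.50 per kb in the same order. The members of the shared-sequence group hold related sequence and are not independent here. Among the other members, those that fell had 1.08 per kb (n = 55), those that rose 0.70 per kb (n = 18) and those not called 0.56 per kb (n = 43). GGACT was present at least once in 84.7% of members, 72.2% of TEC transcripts and 64.3% of lincRNA transcripts, sets that were not matched for length. A match is not a methylated site, methylation was not measured, and no difference in GGACT was tested.

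Genes of nuclear RNA decay and transcription termination were listed because the nuclear exosome and its partners remove many unstable non-coding transcripts. Of 41 such genes 18 could be tested. Of these 6 rose and none fell (edgeR, adjusted p under 0.05), with a median log2 fold change of 0.18. Of all tested genes 27% rose and 27.9% fell, with a median of 0.02, so the share of the list that rose was near that of all genes. At an unadjusted p under 0.05, 1 was lower, Exosc2, and limma-voom called 1 lower and DESeq2 none. Ints6 and Ints2 are subunits of the Integrator complex. Ints6 averaged 87.9 ± 6.24 CPM in the cKO and 44.0 ± 6.86 CPM in the controls, and Ints2 averaged 19.2 ± 0.628 CPM in the cKO and 8.97 ± 2.24 CPM in the controls. Ncbp1 and Ncbp3, subunits of nuclear cap-binding complexes, had log2 fold changes of 1.36 and 0.37. Cpsf2, of the 3′ end cleavage complex, had 0.57, and Exosc4, a ring subunit of the exosome, had 0.45 (adjusted p = 0.0477, edgeR). Most of the exosome core, its helicase Mtrex and the m6A reader Ythdc1 held too few countable reads to be tested.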

How the data were processed

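Whole-number counts for each exon ID were deposited by the authors, a file for each library; the submitters' processing notes name STAR, HTSeq and mm10, without versions or options. Libraries were made with oligo-dT priming, template switching and tagmentation and sequenced as pairs of 150-base reads, per the labels' protocols; they do not mark strand. Reads meeting several exon IDs count as ambiguous and enter no gene. Of 496288 exon IDs, 494230 matched GENCODE M21 (versions ignored); the rest held 0.252% of counts. Counts were summed per gene, kept by filterByExpr (minimum count 10) and scaled by TMM. The test was edgeR 4.0.16's quasi-likelihood F test (R 4.3.3) on group alone, called under 0.05 after Benjamini-Hochberg adjustment. Its standard error is the log2 fold change over the root of F. CPM use TMM library sizes; 3 counts were 0.562 to 0.789 CPM, depending on the library. The procedure was tested on simulated data. Transcripts were aligned with BLAST 2.17.0. Sequences are GENCODE transcripts.

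A member is inside when all its bases lie within a coding gene. Named members are the 10 of highest mean CPM, the 10 lowest and 10 highest log2 fold changes among called members with at least 5 CPM and groups apart, and the 6 farthest from their host. The members and lists were chosen with earlier results of these data known, and the shared-sequence group after the values were seen. Alternatives were other scalings and filters, DESeq2 1.42.0, limma-voom (limma 3.58.1), each library left out, and other member definitions.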

Additional observations from a re-analysis of the deposited data

Results flagged for a closer look

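Of 70 groups of 4 libraries examined, 1 held a library far from the other 3; chance flags about 1 in 20 such groups. It concerned the 127 members outside the shared-sequence group, on which control library 3 had 0.172% of exon counts and the other 3 controls had 0.221% to 0.226% (gap over range 0.913).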

How the results depend on the processing

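All 30 members named by the rules above kept their direction and call in all 535 checks (scalings, filters, DESeq2, limma-voom, left-out libraries). They were picked for high levels, large called changes or distance from their host, which favours stable calls. No scaling and a library size of all reads moved the median of all genes by 0.157 and 0.134 on the log2 scale. A minimum count of 30 left 74 members to test. It gave 48 lower calls in all, 20 inside coding genes and 31 outside the shared-sequence group, a median of -1.31 and 11 inside members below their host. At least 160 counts per member gave a median of -1.28. When a log2 fold change of 1 or more in size was also required, 1801 genes were lower and 1616 higher, and 2 genes of the decay list were higher. That list held 1 lower call with TMM from protein-coding genes and with limma-voom. Leaving out 1 library in turn gave 0 to 1 lower call on that list, a median of -1.17 to -0.81 over the members and of -2.92 to -2.54 over the shared-sequence group, which then held 0 to 1 higher call. That call was Gm43923, also called without the filter (1 higher). Without the shared-sequence group the members' share in the cKO was 0.713 of that in the controls. In each case the cause was not tested, except that the stricter minimum tested fewer members.

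Replicate numbers did not pair the libraries (correlations of same-numbered libraries 0.11, -0.06, 0.10 and 0.06). With the replicate block 74 members were lower and 18 higher, with a median of -0.89, and 2908 genes were lower and 2885 higher. Virma had -1.80, the shared-sequence group 19 lower calls and a median of -2.66. Members below 5 CPM rest on few counts in each library, which limits their precision.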
